A study of Mus musculus with 82 samples.

Results

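Skin biopsies taken 4 days (d4) after whole-body X-rays were compared between mice that had received 6 Gy and mice that had received 1 Gy, and the biopsies after 3 Gy at the same time point were set between them as the middle of the dose order. The arrays were chosen by their labels for dose and time point alone. They were 4 arrays of 4 mice after 6 Gy and 4 arrays of 4 other mice after 1 Gy, together 8 of the 82 arrays in the series, and 5 arrays of 5 mice after 3 Gy. All mice were male C57BL/6j, bought at 8 weeks of age and irradiated 1 week later under ketamine and xylazine, in containers of 5 animals. Each biopsy was 1 cm2 of shaved dorsal skin with its blood, and the d4 biopsy followed a biopsy of the same mouse at 2 hours (h2). The 4 sham arrays at d4 came from mice that were anesthetized, shaved and biopsied without irradiation. A container was irradiated as a whole, so dose and container cannot be told apart, and the methods do not say whether a cage held more than 1 dose.

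Each array was a 2-colour array on which the biopsy RNA carried Cy5 and a universal mouse reference RNA carried Cy3, with no dye swap. A level below is the log2 ratio of Cy5 over Cy3, so that 0 means the same signal as the reference RNA, and a difference below is that of 6 Gy minus 1 Gy on that scale, which equals the difference of the means unless the spot of an array was left out as an outlier. One array of each irradiated dose was read on scanner 1 and the others on scanner 2, and the scanner was a block in every test. Because both doses had the same split over the scanners, the block left the difference between 6 and 1 Gy as it was. No slide held both doses. In the text the scanner 1 array comes first, in the order M010, M007, M008, M009 after 1 Gy, M011 to M015 after 3 Gy, and M017, M016, M018, M020 after 6 Gy.

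The share of probes well above background ran from 46.4 to 71.2% over these 13 arrays, with 67.5 to 71.2% on the scanner 1 arrays and 46.4 to 61.3% on the scanner 2 arrays. The array of 3 Gy mouse M011 stood apart, with a median correlation of 0.754 to the other d4 arrays. For 6 Gy mouse M018 the scanner output and the deposited normalized table disagreed, as given with the processing. The arrays of 1 Gy mouse M008 and 6 Gy mouse M018 were more alike (r = 0.955) than either was to its own dose (median r = 0.845 and 0.879), and the calls, the genes called, the haemoglobin genes and the interferon-stimulated list are given without both as well. The tissue matched its label: the mean over 21 markers of differentiating epidermis was 4.22 to 5.66 on the 6 Gy arrays and 4.36 to 5.47 on the 1 Gy arrays, and that over 12 markers of basal epidermis was 2.61 to 3.33 and 2.87 to 3.58. Skeletal muscle markers were high as well, at 4.32 to 5.43 and 4.25 to 5.57.

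Interferons are secreted proteins that signal through JAK kinases to transcription factors, among them IRF9, which bind the interferon-stimulated response element and switch on a set of antiviral genes. The products include the 2'-5' oligoadenylate synthetases (Oas genes), which sense double-stranded RNA, and the related synthetase-like proteins (Oasl genes). Others are the Ifit proteins, which bind foreign RNA, and the ubiquitin-like protein ISG15. DNA damage by ionizing radiation stabilizes p53, whose targets halt division or start cell death, and blood-forming and dividing epidermal cells are among the most sensitive.

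The promoters of the 3 genes called higher and of Isg15, a list member that was not called, are printed here because members of the list moved together. They come from RefSeq (GRCm38.p6) and run from 250 bases before to 50 bases after the start of each gene. Capitals mark each match on either strand to GAAANNGAAA, the repeated core of the response element, with overlapping matches joined. Ifit3 lies at chr19:34583279-34583578, plus strand, Oas1a at chr5:120907476-120907775, minus strand, Isg15 at chr4:156200769-156201068, minus strand and Oasl2 at chr5:114896684-114896983, plus strand, and each sequence reads along its gene.
Ifit3: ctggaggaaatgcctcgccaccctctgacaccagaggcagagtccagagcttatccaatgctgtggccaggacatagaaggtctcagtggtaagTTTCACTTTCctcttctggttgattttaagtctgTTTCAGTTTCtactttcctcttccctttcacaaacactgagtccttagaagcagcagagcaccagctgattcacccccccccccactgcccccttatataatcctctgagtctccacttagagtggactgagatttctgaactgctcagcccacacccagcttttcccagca
Oas1a: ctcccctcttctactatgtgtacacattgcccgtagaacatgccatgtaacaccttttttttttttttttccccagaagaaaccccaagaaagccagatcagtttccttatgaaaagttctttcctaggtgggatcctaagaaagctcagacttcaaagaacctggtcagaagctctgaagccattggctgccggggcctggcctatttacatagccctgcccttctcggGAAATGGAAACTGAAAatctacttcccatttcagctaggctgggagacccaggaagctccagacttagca
Isg15: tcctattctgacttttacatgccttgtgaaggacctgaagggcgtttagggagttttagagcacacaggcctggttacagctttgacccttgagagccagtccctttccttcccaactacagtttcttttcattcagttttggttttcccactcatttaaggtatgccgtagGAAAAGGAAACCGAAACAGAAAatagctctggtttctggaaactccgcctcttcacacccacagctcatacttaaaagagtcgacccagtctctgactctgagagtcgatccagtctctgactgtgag
Oasl2: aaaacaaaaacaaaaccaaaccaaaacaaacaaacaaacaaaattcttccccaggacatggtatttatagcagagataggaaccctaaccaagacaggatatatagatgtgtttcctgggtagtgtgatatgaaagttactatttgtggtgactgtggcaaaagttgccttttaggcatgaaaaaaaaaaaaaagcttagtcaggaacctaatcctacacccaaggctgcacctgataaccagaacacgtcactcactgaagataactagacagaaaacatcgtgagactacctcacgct
Ifit3 and Oas1a held 2 matches each and Isg15 held 3, and Oasl2 had no match in this window. The letters were found in 12 of the 19 promoters given for the 24 tested genes of the interferon-stimulated list (63.2%), in 394 of 12495 promoters of tested genes (3.15%) and in 1131 of all 32851 promoters of this length (3.44%). Ifi44, Ifit2, Irf7, Irf9, Oasl1 and Xaf1 of the list also had no match, while the 4 members whose unadjusted p stayed above 0.05 each had 1 match.

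Few probes passed the threshold, and of the 7 that did, the 5 with a gene symbol here belonged to 3 interferon-stimulated genes, Depp1 and a haemoglobin gene. A probe was called at a Benjamini-Hochberg adjusted p under 0.05 in limma with a fold of at least 2. Of 30237 probes tested, 5 were higher after 6 Gy (0.0165%) and 2 were lower (0.00661%). Counted by gene, with 1 probe for each of 15712 genes, 3 rose, namely Oasl2, Oas1a and Ifit3 (0.0191%), and 1 fell, namely Depp1 (0.00636%). The other called probes were a second probe of the haemoglobin gene Hbb-bt and 2 without a gene symbol. These 2, A_52_P653054 and A_51_P514085, were higher by 2.41 and 1.27. They had no symbol in the reference used here. Counts by gene and by list therefore leave them out, whatever genes they measure. Neither step of the dose order alone gave a call, with 0 probes for 3 against 1 Gy and 0 for 6 against 3 Gy, where 2771 (9.16%) and 1542 probes had an unadjusted p under 0.05 against 1330 (4.40%) for 6 against 1 Gy. The comparisons share arrays and are not independent. The calls depended on the settings. With slide as a random block, Depp1 stayed called (adjusted p = 0.0174) and the higher probes did not, and with the 8 arrays alone no probe was called. No probe was called either when 1 Gy mouse M010 or M007 or 6 Gy mouse M017 or M020 was left out, while 18 were higher and 2 lower without M018, and 1 was higher and 3 lower without M008. Over all fits without 1 mouse, the adjusted p ran from 0.00365 to 0.198 for Oasl2, from 0.00561 to 0.198 for Oas1a, from 0.00365 to 0.267 for Ifit3 and from 0.0103 to 0.0959 for Depp1, and none of the 4 changed sign. They also rest on a background step that was set after earlier results had been seen, since with the local background as deposited 0 probes were called.

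Oasl2, an oligoadenylate synthetase-like antiviral protein, read -0.98, -0.84, -1.10 and -0.18 on the 1 Gy arrays. It read -0.41, 0.58, -1.02, 0.20 and -0.42 after 3 Gy and 1.57, 1.45, 0.31 and 2.05 after 6 Gy. The groups of 1 and 6 Gy did not overlap, and the sham arrays, at -1.55 to -0.49, lay within or below the range of 1 Gy. The 6 Gy mean was 2.12 higher (SE 0.42, 4.34-fold, adjusted p = 0.0276), with a 95% interval of 1.28 to 2.96. Without mice M008 and M018 the difference was 2.35 (adjusted p = 0.0226).

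Oas1a, a synthetase of the 2'-5' oligoadenylates that activate RNase L, read -1.27, -1.25, -1.07 and -0.75 after 1 Gy. The 3 Gy arrays gave -0.83, 0.01, -1.19, -0.29 and -0.37, and the 6 Gy arrays gave 0.68, 0.76, -0.14 and 0.84. Again 6 Gy lay above 1 Gy on every array, with mouse M018 the lowest of its dose. The mean was 1.62 higher (SE 0.33, 3.07-fold, adjusted p = 0.0279), and 1.85 higher without mice M008 and M018.

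Ifit3, whose product binds IFIT1 in an antiviral complex, read 0.34, 0.27, 0.09 and 0.34 after 1 Gy, the narrowest spread of the called genes. It read 0.77, 1.87, 0.48, 1.08 and 0.84 after 3 Gy and 2.39, 2.72, 1.14 and 2.65 after 6 Gy. Every 3 Gy array lay above every 1 Gy array, and 3 of the 4 arrays of 6 Gy lay above every 3 Gy array. The 6 Gy mean was 1.97 higher than that of 1 Gy (SE 0.41, 3.90-fold, adjusted p = 0.0439), and without mice M008 and M018 it was 2.27 higher (adjusted p = 0.0226).

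The unnamed probe A_52_P653054 had a like pattern, with 0.62, 0.15, -0.38 and 0.34 after 1 Gy and 3.32, 2.88, 1.12 and 3.03 after 6 Gy (adjusted p = 0.0172). No gene is given for it here.

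**Figure D1:**
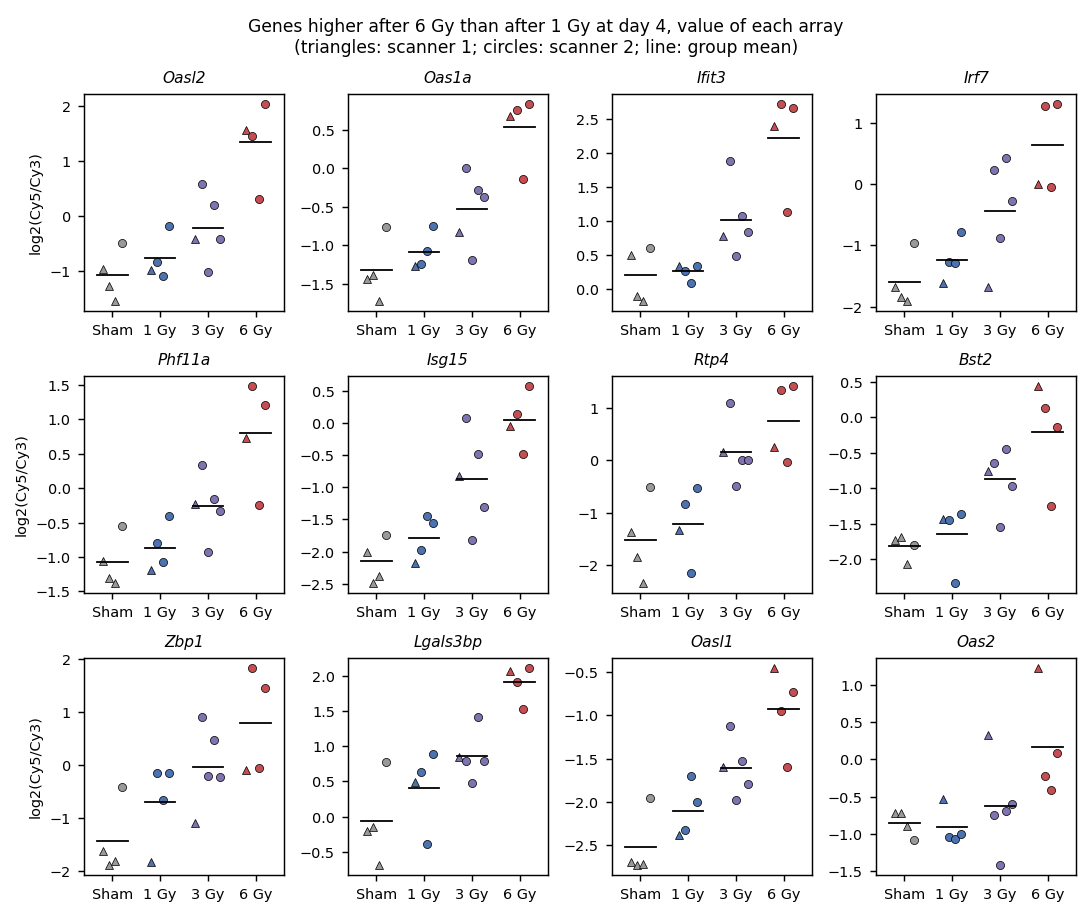
Log2 ratio of biopsy over reference RNA (vertical axes, each panel on its own scale) of 12 genes that lay higher after 6 Gy, for sham, 1, 3 and 6 Gy at d4. Each point is 1 array of 1 mouse (triangles scanner 1, circles scanner 2) and each line a group mean. In every panel the 4 arrays of 6 Gy lie above the 4 of 1 Gy, which is how 9 of the genes were chosen, and for Oas1a one 6 Gy array, at -0.14, lies below the others.

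Beyond the calls, 9 further genes were taken by the rule of a fold of at least 2 with no overlap between the doses and the smallest unadjusted p, and they are given as values. Irf7, the transcription factor that amplifies interferon production, read -1.61, -1.27, -1.28 and -0.79 after 1 Gy and 0.00, 1.27, -0.05 and 1.31 after 6 Gy. The 3 Gy arrays spread from -1.68 to 0.43 and overlapped both groups. Its mean difference was 1.87 (SE 0.41) with an adjusted p of 0.0742.

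Isg15, the ubiquitin-like modifier, gave -2.17, -1.97, -1.44 and -1.56 after 1 Gy and -0.04, 0.15, -0.48 and 0.58 after 6 Gy. Its 6 Gy arrays lay near the level of the reference RNA and its 1 Gy arrays far below it, with a difference of 1.84 (SE 0.43, adjusted p = 0.117). Rtp4, an interferon-induced regulator of receptor transport, differed from this order in that 3 Gy already stood near 6 Gy, with means of -1.21 after 1 Gy, 0.16 after 3 Gy and 0.75 after 6 Gy. Its difference was 1.96 (SE 0.46, adjusted p = 0.117).

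Bst2, also called tetherin, which holds budding virus at the cell surface, was 1.45 higher (SE 0.37), from a mean of -1.65 to -0.20. Zbp1, a sensor of Z-form nucleic acid, was 1.48 higher (SE 0.38), Oasl1 was 1.17 higher (SE 0.34) and Oas2 was 1.07 higher (SE 0.33). Outside the interferon-stimulated list, Phf11a was 1.67 higher (SE 0.38) and Lgals3bp, a secreted galectin-binding glycoprotein, was 1.50 higher (SE 0.42). Among these 9 genes the adjusted p ran from 0.0742 to 0.680, so none passed the threshold.

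Of the 26 genes of the interferon-stimulated list, 24 were tested and all 24 lay above 0 in 6 against 1 Gy, where 50.6% of all genes did. Their median difference was 1.12, against 0.00319 over all genes. An unadjusted p under 0.05 was reached by 20 of them, against 2.26% of all genes, and 14 of those also had a fold of at least 2. In 17 of the 24 every 6 Gy array lay above every 1 Gy array, as in 1.2% of all genes, and the 3 named above were called. The mean over the 24 genes was -0.73, -0.58, -0.61 and -0.34 on the 1 Gy arrays and 0.61, 0.78, 0.02 and 0.88 on the 6 Gy arrays. The array of mouse M018 was the lowest of its dose and still lay above every 1 Gy array. Without mice M008 and M018 the median difference of the list was 1.25.

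The members differed in size. Stat2 and Irf9, transcription factors of the interferon signal, differed by 0.76 (SE 0.24) and 0.63 (SE 0.21), with no overlap between the doses in either. The RNA sensors Ifih1 (0.43, SE 0.27) and Ddx58 (0.33, SE 0.39), the GTPase Gbp2 (0.69, SE 0.41) and the chemokine Cxcl10 (0.08, SE 0.53) were the 4 members whose unadjusted p stayed above 0.05. The interval of Cxcl10, -0.97 to 1.14, leaves room for a change of either sign.

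**Figure D2:**
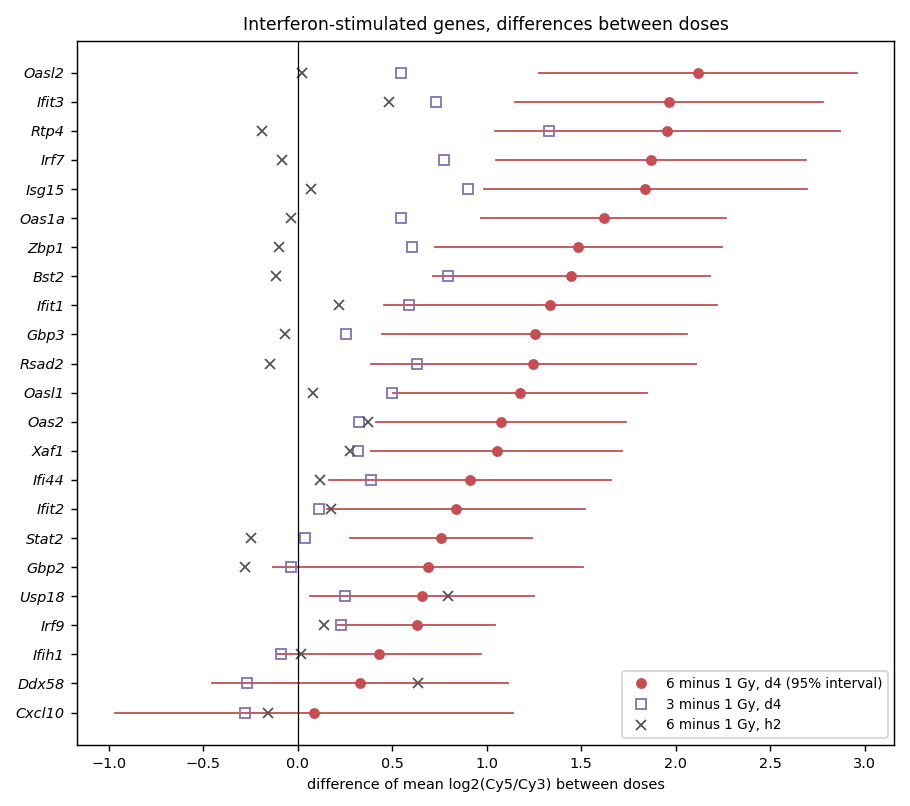
Difference of mean log2 ratio between doses (horizontal axis) for 23 of the 24 tested genes of the interferon-stimulated list (rows, ordered by the difference of 6 against 1 Gy). Filled circles with 95% intervals are 6 minus 1 Gy at d4, open squares 3 minus 1 Gy at d4 and crosses 6 minus 1 Gy at h2. All 23 circles lie right of 0, and over the 24 genes the medians were 1.12 for the circles, 0.36 for the squares and 0.02 for the crosses.

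Along the dose order the list differed by unequal steps. Its median difference was 0.36 for 3 against 1 Gy, with 20 of 24 genes above 0 (51.6% of all genes) and 3 with an unadjusted p under 0.05 (5.56% of all genes higher). For 6 against 3 Gy it was 0.72, with all 24 above 0 (46.7% of all genes) and 14 with an unadjusted p under 0.05 (2.03% of all genes higher), 4 of which also had a fold of at least 2 (0.102%). For 3 against 1 Gy 14 genes of all those tested met both in the higher direction (0.0891%), among them Rtp4 of this list. Both steps use the 3 Gy arrays, so neither is independent of the other, and no probe was called in either. The list mean of the 5 arrays of 3 Gy was -0.25, 0.23, -0.63, 0.06 and -0.24, which overlapped 1 Gy through mouse M013 and 6 Gy through mice M012 and M014. The 4 sham arrays had list means of -0.96 to -0.56, overlapping those of 1 Gy, although 3 of the 4 sham arrays were read on scanner 1.

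Slide and scanner could be set beside this in part. The slide that held 6 Gy mice M016 and M020 also held 3 Gy mice M014 and M015, and on it the list means were 0.78 and 0.88 after 6 Gy against 0.06 and -0.24 after 3 Gy. The slide of 1 Gy mouse M010 also held 3 Gy mouse M011, with list means of -0.73 and -0.25. The median difference of the list between 6 and 1 Gy was 1.47 between the single arrays of scanner 1, with 23 of 24 genes higher after 6 Gy (55.6% of all genes), and 0.95 on scanner 2. With slide as a random block the list's median was 1.10, all 24 genes stayed above 0, and the adjusted p of Oasl2, Oas1a and Ifit3 became 0.217, 0.244 and 0.305. For 6 against 1 Gy, slide and dose cannot be told apart within a slide.

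At h2 the doses lay close together by the median of this list, though not in every member. There, 6 against 1 Gy gave a median of 0.02 over the list, and Oasl2, Oas1a and Ifit3 differed by 0.02, -0.04 and 0.48. The test of d4 against h2 reused mice, since 3 of 1 Gy (M007, M009, M010) and 3 of 6 Gy (M016, M017, M020) gave both biopsies. In this test 22 of the 24 genes lay above 0 (52% of all genes) and 12 had an unadjusted p under 0.05 (1.6% of all genes more positive at d4). The largest such values were 2.14 for Rtp4 (limma, unadjusted p = 0.00151) and 2.10 for Oasl2 (unadjusted p = 0.000827). No probe of any gene was called in this test with a fold of at least 2, where 1252 probes had an unadjusted p under 0.05, so the change from h2 to d4 did not pass the threshold for any single gene.

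Over all genes, 33 had a fold of at least 2 and an unadjusted p under 0.05 in the higher direction (0.21%), and 14 of them were members of the interferon-stimulated list. Named after their values were seen, the others included Phf11d (1.66), the GTPases Gbp6 (1.24), Tgtp1 (1.08) and Iigp1 (1.38), the RNA sensor Dhx58 (1.20), Trim30a (1.06), Trim30d (1.19), Ifi204 (1.03) and Ifi27l2a (1.76). Ifi27l2a had a value on only 2 of the 4 arrays of 1 Gy and Gbp6 on 3 of the 4 arrays of 6 Gy. Further genes were the sialic acid receptor Siglec1 (1.19), the IgG receptor Fcgr1 (1.36), Plac8 (1.92), the complement regulator Cfp (1.07, and 0.65 without 1 Gy mouse M008) and the lectin Fcna (1.31). Mmp25 (1.10) and Kcnh3 (1.29) were well above background on only 2 of the 4 arrays of 6 Gy and came from 1 array, that of mouse M020, at 3.55 and 4.29 against at most 0.44 and 0.49 on the other 3. Without it they differed by 0.27 and 0.29. None of these passed the adjusted threshold.

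Markers of macrophages and monocytes lay mostly above 0 by small amounts. Of 16 tested, 14 lay above 0 (50.6% of all genes), with a median of 0.25, and 2 had an unadjusted p under 0.05 (2.26% of all genes). Fcgr1, which interferon also induces, was one. Ly6c2, a marker of inflammatory monocytes, read 2.54, 2.35, 2.66 and 3.12 after 1 Gy and 3.83, 3.33, 3.14 and 3.73 after 6 Gy, with no overlap and a difference of 0.84 (SE 0.36, unadjusted p = 0.0229). The defining genes Adgre1 (0.12, SE 0.45), Csf1r (0.25, SE 0.35) and Itgam (0.08, SE 0.22) differed by less than their errors. The median between the doses was already 0.27 at h2. The mean over the list at d4 ran from 0.98 to 2.48 after 1 Gy and from 1.71 to 2.72 after 6 Gy, so the doses overlapped, and its part in the interferon-stimulated values was not tested. In such whole biopsies, more or fewer cells of a type and more or less RNA per cell cannot be told apart.

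Targets of p53 differed by small amounts, mostly with the higher value after 6 Gy. Of the 32 genes on the list, all tested, 30 lay above 0 (50.6% of all genes) with a median of 0.30, and 7 had an unadjusted p under 0.05 (2.26% of all genes). None reached a fold of 2 and none was called. The list mean was 0.35, 0.33, 0.36 and 0.31 on the 1 Gy arrays and 0.67, 0.67, 0.57 and 0.69 on the 6 Gy arrays, so the doses did not overlap. After 3 Gy it was 0.52, 0.46, 0.38, 0.56 and 0.61, and the sham arrays, at 0.23 to 0.29, lay below all irradiated arrays.

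Gdf15, a secreted stress cytokine of the TGF-beta family, read -1.95, -1.74, -1.53 and -1.63 after 1 Gy. It read -1.09, -0.86, -1.19, -1.26 and -1.28 after 3 Gy and -1.30, -0.91, -1.19 and -0.29 after 6 Gy. Here 3 and 6 Gy overlapped and both lay above 1 Gy, with a difference of 0.79 for 6 against 1 Gy (SE 0.22, adjusted p = 0.408) and of 0.57 for 3 against 1 Gy. Mdm2, the ubiquitin ligase that degrades p53, was 0.49 higher (SE 0.17) and Dglucy 0.64 higher (SE 0.24), both without overlap. Cdkn1a, the p21 inhibitor of cyclin-dependent kinases, was 0.87 higher (SE 0.43), but its 1 Gy arrays ran from 0.27 to 2.51 and overlapped those of 6 Gy, at 1.44 to 3.15. At h2 the median of the list for 6 against 1 Gy was -0.13, and in the test of d4 against h2, 28 of 32 genes lay above 0 (52% of all genes) and 8 had an unadjusted p under 0.05 (1.6% of all genes more positive at d4).

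**Figure D3:**
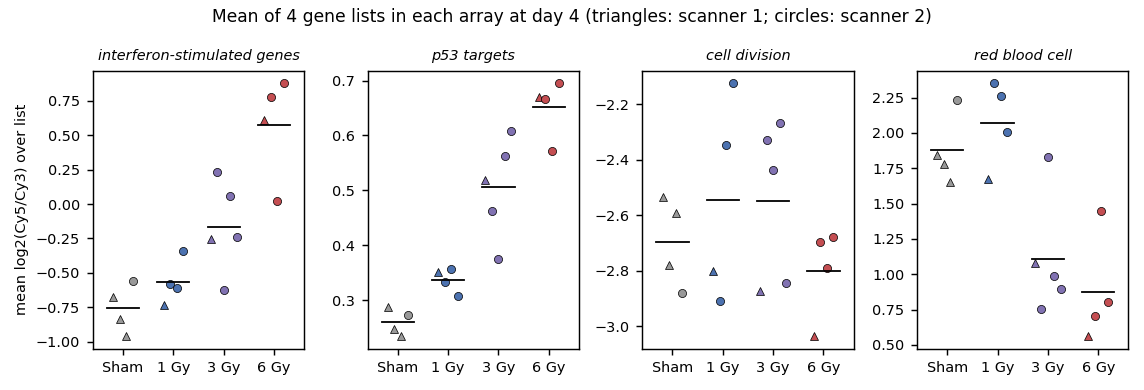
Mean log2 ratio over the tested members of 4 gene lists (vertical axes, own scale in each panel) in each array at d4, for sham, 1, 3 and 6 Gy (triangles scanner 1, circles scanner 2, lines group means). The interferon-stimulated genes (-0.73 to -0.34 after 1 Gy, 0.02 to 0.88 after 6 Gy) and the p53 targets (0.31 to 0.36 and 0.57 to 0.69) do not overlap between 1 and 6 Gy, while cell division does.

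On the lower side Depp1, a regulator of autophagy that FOXO factors and fasting induce, was the gene that fell. It read 4.23, 4.09, 3.79 and 4.09 after 1 Gy and 1.87, 1.74, 0.40 and 1.93 after 6 Gy. The 3 Gy arrays gave 2.74, 2.82, 4.93, 3.14 and 3.95 and overlapped the 1 Gy arrays, while the sham arrays lay at 3.42 to 4.34. The 6 Gy mean was 2.57 lower than that of 1 Gy (SE 0.48, 5.92-fold, adjusted p = 0.0172), with the difference at -0.53 for 3 against 1 Gy and -2.03 for 6 against 3 Gy, so that most of the fall lay in the upper step. At h2 the doses differed by -0.03. Mouse M018 was again apart, and without it and M008 the difference was -2.29 (adjusted p = 0.0944), past the threshold no more.

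RNA of the haemoglobin gene Hbb-bt read lower on all 4 arrays of 6 Gy, and on 4 of the 5 arrays of 3 Gy, than on any array of 1 Gy. Hbb-bt, Hba-a1, Alas2, Fkbp5, Mki67, Ptn and Gzmc were taken by a fold of at least 2 without overlap between 6 and 1 Gy. For these genes the lack of overlap is therefore not a separate result. Hbb-bt, a beta-globin of adult red blood cells, read 5.62, 7.42, 7.26 and 6.61 after 1 Gy, and the sham arrays read 5.67 to 7.28. It read 3.42, 2.35, 6.79, 3.08 and 2.62 after 3 Gy and 1.71, 2.10, 5.11 and 2.37 after 6 Gy. Each dose thus held 1 array far above its others, that of mouse M013 after 3 Gy and of mouse M018 after 6 Gy, and every 6 Gy array still lay below every 1 Gy array. The mean was 3.91 lower after 6 Gy (SE 0.84, adjusted p = 0.0711) and 3.14 lower after 3 Gy (adjusted p = 0.121). Without mice M008 and M018 the mean of 6 Gy was 4.49 lower (adjusted p = 0.0509), and without M018 alone it was 4.56 lower (adjusted p = 0.00866). A second probe of the gene, A_52_P260346, was the one called, 3.55 lower after 6 Gy (SE 0.69, adjusted p = 0.0246), and the 2 others, each with a value on 3 of the 4 arrays of 1 Gy, were 1.91 and 3.02 lower. The globin genes are near-identical copies, and signal cannot be assigned to one of them with certainty.

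Hba-a1, an alpha-globin, read 3.74, 5.02, 5.07 and 4.04 after 1 Gy and 1.81, 2.03, 3.67 and 2.04 after 6 Gy. The difference was -2.08 (SE 0.62, adjusted p = 0.633) and -2.31 without mice M008 and M018, and that of 3 against 1 Gy was -2.13 with 1 of the 5 arrays of 3 Gy left out, since the scanner software marked its spot as an outlier. Alas2, the enzyme that starts haem synthesis in red blood cell precursors, read 1.09, 1.74, 1.07 and 1.03 after 1 Gy and 0.31, 0.11, 0.31 and -0.02 after 6 Gy. It was well above background on only 1 of the 4 arrays of 6 Gy, so the difference of -1.06 (SE 0.63, unadjusted p = 0.101) is uncertain. Tfrc, the transferrin receptor, which dividing skin cells use as well, differed by -0.36 (SE 0.22). Of the 16 genes listed for red blood cells 6 were tested, with a median of -0.71 and 4 below 0. Their mean was 1.67 to 2.35 after 1 Gy and 0.56 to 1.45 after 6 Gy, and at h2 the median difference between the doses was -0.10. The amount of blood in a biopsy was not recorded in the sources used here, and its part in these values was not tested.

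**Figure D4:**
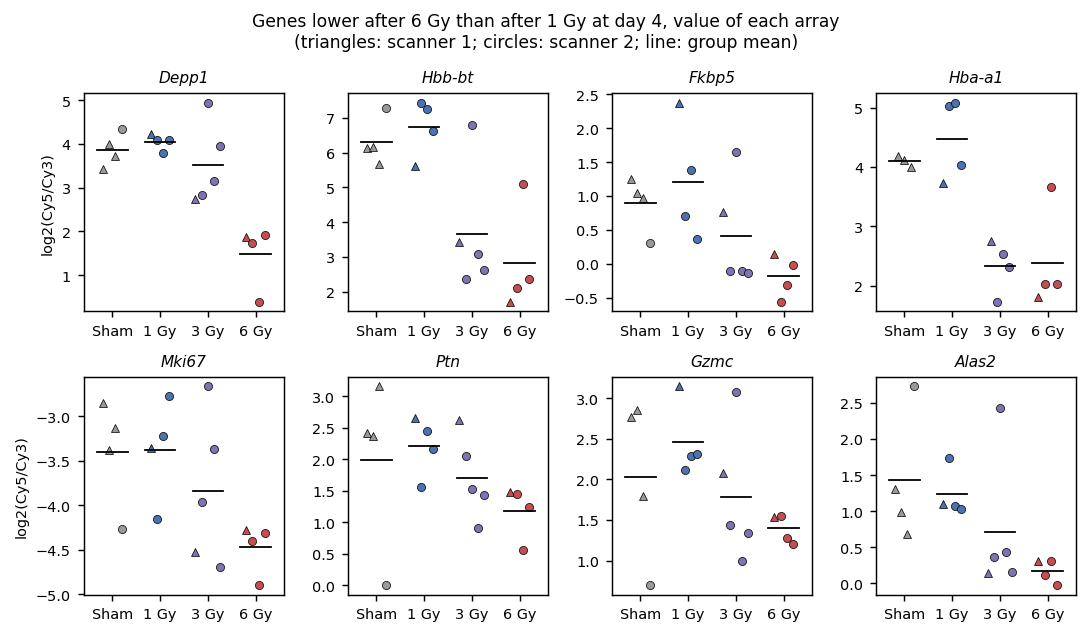
Log2 ratio of biopsy over reference RNA (vertical axes, own scale in each panel) of 8 genes that lay lower after 6 Gy, for sham, 1, 3 and 6 Gy at d4. Each point is 1 array of 1 mouse (triangles scanner 1, circles scanner 2) and each line a group mean. Hbb-bt of mouse M013, at 6.79 after 3 Gy, stands far above the other 3 Gy arrays, and Depp1 of mouse M018 reads 0.40 after 6 Gy, below the other 3.

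In all, 17 genes had a fold of at least 2 and an unadjusted p under 0.05 in the lower direction (0.108%), and 7 of them did not overlap between the doses (0.713% of all genes). Beside those above they were Fkbp5, Mki67, Ptn and Gzmc. Fkbp5, a glucocorticoid-induced co-chaperone, was 1.39 lower (SE 0.38) by its brightest probe, but its 2 other probes differed by -0.04 and -0.06, so the probes of this gene disagree. Ptn, the growth factor pleiotrophin, differed by -1.03 (SE 0.42), and by -0.29 in the deposited normalized table. The granzyme gene Gzmc differed by -1.07 (SE 0.52), and by -0.66 with the local background as deposited. Named after their values were seen, Nfkbia, the inhibitor of NF-kappaB, was 1.23 lower (SE 0.38) on 3 arrays of 1 Gy, since 1 spot was marked as an outlier, and Errfi1, an inhibitor of the EGF receptor, was 1.25 lower (SE 0.38).

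Genes of the glucocorticoid and metallothionein list lay lower, with a median of -0.38 over 15 tested and 11 below 0. Of these 4 had an unadjusted p under 0.05 (1.68% of all genes lower), among them Fkbp5 and Tsc22d3, the glucocorticoid-induced leucine zipper, which was 1.28 lower (SE 0.45). Tsc22d3 read 2.90, 3.19, 1.68 and 2.67 after 1 Gy and 1.05, 1.65, 0.19 and 2.42 after 6 Gy, so that the doses overlapped. The median of the list was already -0.37 between the doses at h2, and in the test of d4 against h2 none of the 15 had an unadjusted p under 0.05.

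Genes of cell division differed by small amounts, mostly with the lower value after 6 Gy. Of 34 tested, 29 lay below 0 with a median of -0.21, and 5 had an unadjusted p under 0.05 (1.68% of all genes lower). Mki67, the Ki-67 antigen of cycling cells, read -3.36, -4.15, -3.23 and -2.78 after 1 Gy and -4.28, -4.40, -4.89 and -4.31 after 6 Gy. The groups did not overlap, although the 3 Gy arrays ran from -4.69 to -2.67, across both, and the sham arrays from -4.27 to -2.86. Its difference was -1.09 (SE 0.35, adjusted p = 0.704), and its second probe gave -0.91, but in the deposited normalized table it was -0.27. Nusap1 and Birc5, which act in the mitotic spindle, differed by -0.61 (SE 0.25) and -0.66 (SE 0.29), with overlap, and by -0.28 and -0.44 without 1 Gy mouse M009. The median of the list was 0.00 for 3 against 1 Gy and -0.24 for 6 against 3 Gy. The list mean overlapped between the doses, at -2.91 to -2.12 after 1 Gy and -3.04 to -2.68 after 6 Gy. The highest 1 Gy array was that of mouse M009, whose mean over the 26 growing hair follicle genes was 1.95 against 0.37 to 0.53 on the other 1 Gy arrays and 0.36 to 0.51 after 6 Gy, and the part of follicle stage in these values was not tested.

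Markers of dendritic and Langerhans cells had a median of -0.31 over 14 tested, with 11 below 0 and 2 with an unadjusted p under 0.05 (1.68% of all genes lower). These 2 were Ccl17, a chemokine of dendritic cells, at -0.80 (SE 0.39), and the receptor gene Flt3 at -0.81 (SE 0.28). Each rested on 1 array of 1 Gy, and they differed by -0.33 without mouse M009 for Ccl17 and by 0.01 without mouse M007 for Flt3, which read 3.40 there against 0.07 to 0.20 on the others. Cd207, the langerin of Langerhans cells, differed by -0.75 (SE 0.51) with overlap. The list mean was 1.44 to 1.87 after 1 Gy and 1.18 to 1.39 after 6 Gy.

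No member of the remaining lists was called by its brightest tested probe. The called second probe of Hbb-bt, given above, belongs to a gene of the blood-related list below. The inflammatory cytokines and chemokines had 16 of 19 above 0 with a median of 0.16 and none with an unadjusted p under 0.05. Differentiating epidermis (median 0.01, 11 of 21 above 0) and basal epidermis (-0.04, 6 of 12 above 0) lay around 0, and Krt5 and Krt14, keratins of basal cells, differed by 0.05 (SE 0.22) and -0.11 (SE 0.24). Adipocyte genes had a median of -0.07 with 7 of 19 above 0, which was -0.38 between the scanner 1 arrays and 0.06 on scanner 2. The fibroblast and matrix genes had a median of 0.14 with 20 of 28 above 0, which was 0.45 and 0.05 on the scanners and 0.52 at h2. Skeletal muscle genes had 17 of 20 below 0 with a median of -0.33, which was 0.12 between the scanner 1 arrays and -0.44 on scanner 2. Genes of the growing hair follicle (-0.24), resting follicle (-0.23), melanocytes (-0.29), nerve (-0.25), sebaceous gland (-0.27) and smooth muscle (-0.12) lay below 0 by their medians, each with no unadjusted p under 0.05.

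Among cells of the blood, T and NK cells had a median of -0.07, B cells of 0.03, neutrophils of 0.03, mast cells of -0.08 and platelets and megakaryocytes of 0.13. Of the T and NK cell markers, 6 of 17 lay above 0, and the CD3 chains of the T cell receptor complex ran apart, with Cd3e at 0.61 (SE 0.24) and Cd3d at -0.61 (SE 0.41). Collagen, laminin and kallikrein genes of coagulation pathways had a median of 0.14, with 14 of 18 above 0 and 1 with an unadjusted p under 0.05. A list of blood-related genes that includes the globins had 5 of 8 above 0 and a median of 0.10. Both lists hold genes that the paper chose on these samples, so their direction is not independent evidence. The first leaves out Col6a3 and the second Slpi and Plg, which the paper also named. Genes of DNA repair had a median of -0.03, the circadian clock of -0.10, immediate early and heat shock genes of 0.03, the endothelium of -0.12 and epidermal stress genes of -0.10. The mitochondrial, ribosomal and housekeeping genes kept as a sign of RNA quality had a median of -0.07, with list means of -0.32 to -0.04 after 1 Gy and -0.41 to -0.08 after 6 Gy.

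**Figure D5:**
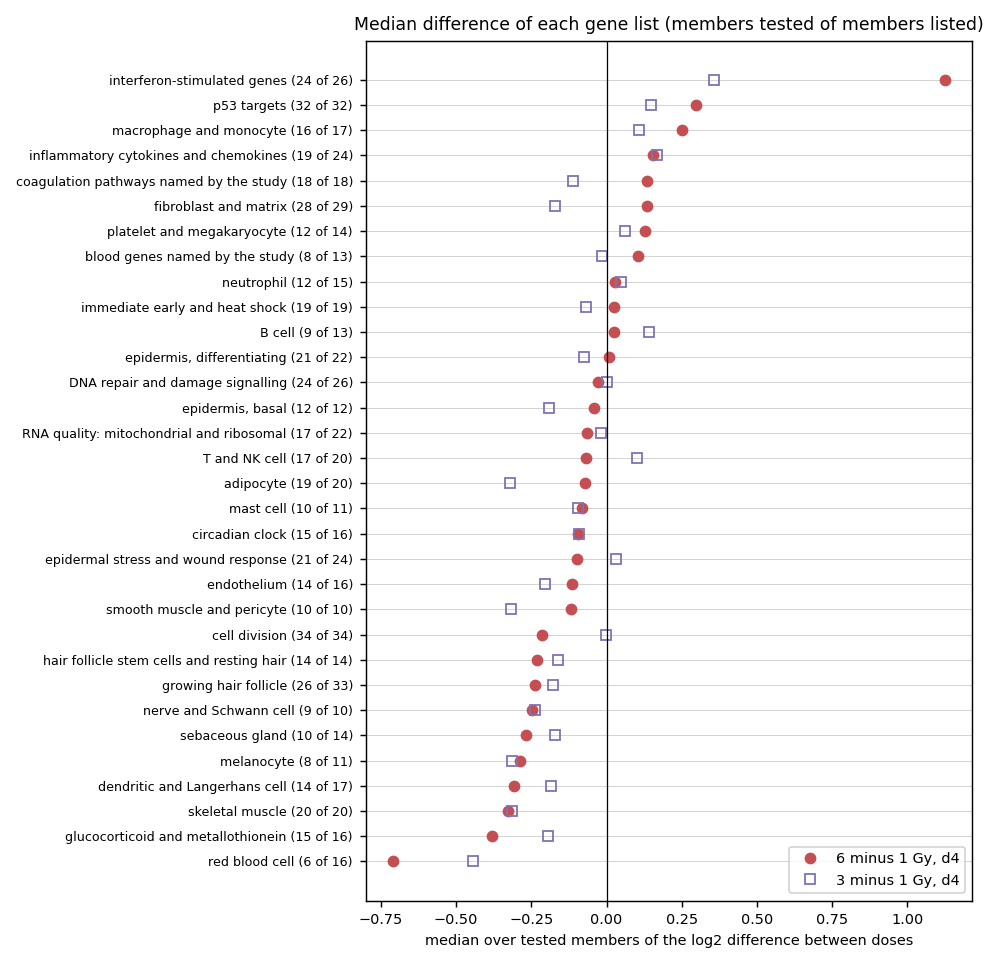
Median log2 difference over the tested members (horizontal axis) of each gene list (rows, with members tested of members listed), for 6 minus 1 Gy (filled circles) and 3 minus 1 Gy (open squares) at d4. The interferon-stimulated genes, at 1.12, lie farthest to the right and red blood cells, at -0.71, farthest to the left, and both comparisons share the 1 Gy arrays.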

How the data were processed

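Total RNA of skin biopsies was hybridized to 2-colour Agilent arrays, with 82 arrays of 24 mice on 26 slides in 23 groups of dose and time point, taken from the sample labels. As deposited, the scanner output gives median intensity per spot for Cy5, Cy3 and the background around the spot, extracted with Feature Extraction 11.0.1.1 on scanner 1 and 10.10.1.1 on scanner 2 per the file headers and not normalized. The log10 ratio of Cy5 over Cy3, as deposited, was calculated by the scanner software, which had subtracted background and balanced the dyes by its own method. Normalized log2 values made by the authors were deposited as 1 table, and the steps behind them are not given in the sources used here. Its columns for these arrays had medians of -0.0106 to 0.0024 and slopes of 0.717 to 1.06 against the scanner values of the same array, in the same direction, so its centring is near 0 and its method and scale stay unknown. For M010, M017 and M018 the correlation with the own array (0.934, 0.924 and 0.915) was below the best with another (0.948, 0.938 and 0.953). After each probe was centred on its mean over all arrays, only M018 of these 13 stayed so (0.239 against 0.495, with 0.498 to 0.8 for the own array of the others), so the table and the scanner output do not hold the same values for M018. The flags of the scanner software were used as deposited.

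From the intensities, the background was corrected in limma 3.58.1 (R 4.3.3) by normexp with an offset of 50, and ratios were normalized within each array by loess. With the local background as deposited this step raised the 5th percentile of the signal above its uncorrected value on 32 of the 82 arrays, so local backgrounds that the scanner software marks as outliers (1.64% in Cy5 and 1.54% in Cy3) were first set to the median of the array, after which no array showed this. That choice was made after the results without it had been seen. Control spots and outlier spots (0.704% of values) were left out, spots of a probe were averaged, and a probe was tested if the Cy5 flag put it well above background on 50% or more of any group's arrays. Symbols came from RefSeq tables by accession for 27553 of 41174 probes, and a gene was represented by its brightest tested probe. One model over all arrays held the 23 group means and the scanner as a block, and p-values were adjusted over 30237 probes. The fit was tested on simulated data. In the model, p-values rest on the spread between arrays within a group, pooled over all 23 groups. They do not rest on the spread of the compared arrays alone. Mice recur between groups, and the model held neither mouse nor slide. Precision is limited by the number of arrays. The members, lists and tests were chosen with earlier results of these data known. Named genes were those called, filled to 12 in a direction with genes of at least 2-fold and no overlap by smallest p, and up to 3 genes of each list by smallest p. One gene of the interferon-stimulated list counts in its totals and is not reported by name here.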

Additional observations from a re-analysis of the deposited data

Results flagged for a closer look

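The 81 groups of 4 or 5 values checked covered the genes called or taken by fold without overlap and the means of some gene lists. Of them 8, all for single genes, held 1 array far from the others of its dose, where chance gives about 1 in 20. Mouse M018 after 6 Gy gave 3 of them, with Oas1a at -0.139 against 0.68 to 0.84 on the others, Depp1 at 0.399 against 1.74 to 1.93, and Hba-a1 at 3.67 against 1.81 to 2.04. Mouse M013 after 3 Gy gave 2, with Hbb-bt at 6.79 against 2.35 to 3.42 and Alas2 at 2.43 against 0.14 to 0.44. After 1 Gy, Bst2 read -2.33 in mouse M008, Oas2 read -0.528 in mouse M010 and Alas2 read 1.74 in mouse M007, each apart from the other 3 arrays. Tmtc4, by a probe other than its brightest, was the gene for which the difference between 6 and 1 Gy itself differed between d4 and h2, at -0.46 and 0.35, with a difference of -0.812 (SE 0.15, limma adjusted p = 0.0408) that stayed below a fold of 2.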

How the results depend on the processing

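No paired analysis was possible because a mouse number names 1 animal of 1 dose, which leaves no pairs between doses. For d4 against h2, where mice recur, mouse as a random block (correlation 0.000933) also gave 0 probes. Higher and lower probes called for 6 against 1 Gy numbered 5 and 2 in the reported setting. They numbered 4 and 1 without the scanner block, 0 and 0 with only the 8 arrays, with only the 13 arrays, with scanner 2 arrays only, without the 20 Gy arrays and with the local background as deposited, 0 and 1 with slide as a random block (correlation within a slide of 0.293), 30 and 10 with array weights, 9 and 2 with each array centred on its median, 1 and 2 with log ratios as the scanner software gives them, 40 and 38 in the deposited table (29 and 20 with M018 left out of it), and 8 and 1 without both M008 and M018. With array weights and in the deposited table they included all 5 higher and both lower probes of the reported setting. Leaving out 1 mouse at a time gave 0 to 18 higher and 0 to 3 lower, and not always the same probes. Without M016, 4 were higher and 1 lower, and 1 of each was called in the reported setting too. Without M018 those of the reported setting still called were 5 higher and 1 lower, and without M008 they were 1 and 1. No probe was called without M010, M017, M020 or M007, 18 were higher and 2 lower without M018, and 1 was higher and 3 lower without M008. For 3 against 1 Gy, 0 probes became 5 with slide as a random block, 15 with array weights, 68 in the deposited table (67 with M018 left out), 18 without both M008 and M018, and 0 to 19 when 1 mouse was left out, with 19 without M008 and 11 without M013. For 6 against 3 Gy, 0 became 8 with array weights and 43 in the deposited table (8 with M018 left out), and for d4 against h2, 0 became 52 with array weights. The causes, the fewer degrees of freedom with fewer arrays among them, were not tested. The median of the interferon-stimulated list was 1.65 with log ratios as the scanner software gives them and 0.859 to 1.65 over the alternatives, with 23 or 24 of 24 genes above 0 in each. For the 20 genes called or taken by fold without overlap, over 31 alternatives, 522 values kept their direction and side of the threshold, 55 lost the threshold, 43 passed it and 0 changed sign. Among the differences that moved by over 1.5 times were Irf7 (2.87), Oas2 (1.86), Fkbp5 (-2.32) and Alas2 (-3.52) with log ratios as the scanner software gives them, Alas2 (-0.43) in the deposited table, and Depp1 (-1.53) and Oas2 (0.70) with the local background as deposited. Intensity over background limits Alas2, Mmp25 and Kcnh3, which were not well above background on every 6 Gy array.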
